A study of Mus musculus with 58 samples.

Results

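The livers of mice given benz(a)anthracene (BaA) at the high dose were compared with those of mice given the vehicle alone. The samples were chosen by their titles, as the livers of dose group D3 (mice 16 to 19) and of dose group D0 (mice 1 to 5), which made 9 of the 58 arrays of the series. All animals were male Muta™Mouse, a transgenic strain carrying a bacterial lacZ reporter in every cell, about 10 weeks old and housed singly. D0 received olive oil and D3 received BaA in olive oil at 80 mg/kg-bw/day, by gavage each day for 28 days, and livers were taken 72 h after the last dose. Livers at 20 (D1) and 40 (D2) mg/kg-bw/day, with 5 mice each, completed the 19 liver arrays. Each array held RNA from random sections of the liver of 1 mouse in the red channel (Cy5) and a reference RNA pooled from mouse cell lines, the same on every array, in the green channel (Cy3). The liver of the 5th high-dose mouse, mouse 20, was not analysed here.

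BaA is a polycyclic aromatic hydrocarbon. Such compounds bind the aryl hydrocarbon receptor (AhR), a ligand-activated transcription factor that pairs with ARNT and switches on Cyp1a1, Cyp1a2, Cyp1b1 and other genes of xenobiotic metabolism. The oxidised products can bind DNA, and the bulky adducts are removed by nucleotide excision repair and can engage p53. The comparison asked which liver transcripts differed after repeated dosing, with tissue taken some days after the last dose.

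Every value is given as a log2 ratio of liver RNA to reference RNA unless another scale is named, so that a step of 1 is a doubling and levels of different genes cannot be set against each other. A change is the fitted D3 mean minus the D0 mean. Between 36.1% and 45.7% of probes were well above background in Cy5 on the D0 arrays and 34.9% to 40.7% on the D3 arrays. Arrays correlated across probes with r of 0.970 to 0.985 within D0, 0.975 to 0.988 within D3 and 0.967 to 0.985 between the groups. All 10 hepatocyte markers (among them Alb, Apoa1 and Cps1) were well above background on all 9 arrays. The D0 arrays always lay in column 1 of a slide and the D3 arrays in column 4, so dose and array position cannot be told apart.

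The vehicle array of mouse 5 stood apart in many of the decreases. It had the largest share of probes above background (45.7%), but it lay on slide 3. The arrays of that slide, of all doses, ran from 40.7% to 45.7%, and those of slides 1 and 2 from 34.1% to 39.4%. Its mean correlation with the other D0 arrays was 0.974, as was that of mouse 2, also on slide 3. The part of the slide was not tested. Among the 82 probes called lower at D3, mouse 5 was the lowest D0 array for 43, and for 18 it was the sole D0 array lying at or below the highest D3 array. Mouse 4 did so for 2 such probes, mice 1 and 2 for 1 each and mouse 3 for 0. Values without mouse 5 are therefore given where results rest on it.

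The high dose went with few differences, most of them decreases, as did both lower doses against the same D0 mice. Of 22789 probes tested, 99 (0.434%) were called at an adjusted p (limma, Benjamini-Hochberg) of 0.05 or less with a fold change of 1.5 or more. Higher calls numbered 17 (0.0746%) and lower calls 82 (0.36%). The increases ranged from 0.59 to 1.63 with a median of 0.85, and the decreases from -0.59 to -2.49 with a median of -0.79. The called probes named 52 genes, 14 higher and 38 lower, of 12044 tested. Over all tested probes the median change was -0.004 with 51.1% of changes below 0, and 3417 probes (15.0%) had an unadjusted p under 0.05.

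The 4 D3 arrays did not overlap the 5 D0 arrays for 74 of the 99 called probes, namely 14 of 17 higher and 60 of 82 lower. Over all tested probes 1192 (5.23%) showed no overlap. Each of the 3 slides carried both groups, slide 2 with a single array of each (mice 1 and 17). The number of calls depended on single mice and on the fit: leaving out vehicle mouse 5 gave 204, vehicle mouse 1 gave 48 and vehicle mouse 3 gave 57, while leaving out high-dose mouse 17, 18 or 19 gave 55, 40 or 49. A model of the D0 and D3 arrays alone made 32 calls. With median centring of each array in place of loess, 27 probes were called, 1 higher and 26 lower. Of the 24 genes with the largest changes, Pigt, Scyl3, Dact2, Neat1, Pde5a, Dnajb1, Shfl and Dido1 stayed called whichever mouse was left out. Each of the other 16 lost its call without at least 1 mouse, with D3 mice 17 and 18 each deciding 12. In the model of the D0 and D3 arrays alone, Neat1 and Shfl lost their calls (limma adjusted p = 0.114 and 0.066). Ccnl2, Col5a3 and Pisd-ps3 were among the others that lost theirs there. Scyl3, Dact2 and Pde5a lost theirs with median centring, and Dact2 with Cy5 alone too.

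**Figure D1:**
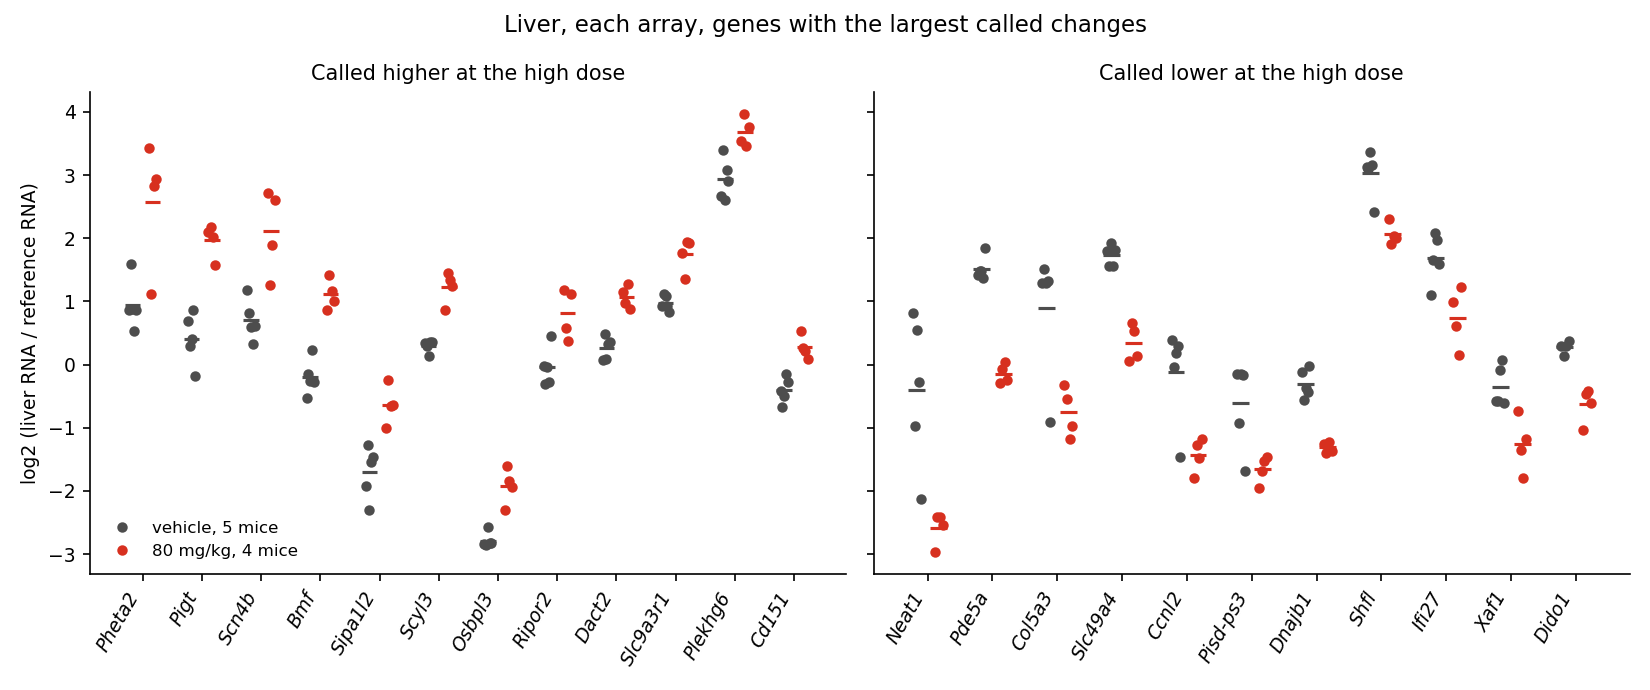
Log2 ratio of liver to reference RNA on each array for the 12 genes with the largest called increases and 11 of the 12 with the largest called decreases. Grey points are the 5 vehicle mice (D0), red points the 4 mice at 80 mg/kg-bw/day (D3) and dashes the group means; for Neat1 the vehicle arrays run from -2.13 to 0.82 and the high-dose arrays from -2.97 to -2.41.

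Pigt, a subunit of the GPI transamidase that attaches proteins to their membrane anchor, had the lowest adjusted p among the increases. Its ratios were 0.69, 0.29, 0.40, 0.86 and -0.18 on the arrays of D0 mice 1 to 5 and 2.10, 2.18, 2.03 and 1.58 on those of D3 mice 16 to 19. The groups lay well apart. The change was 1.56 ± 0.20 (SE from the fit, n = 5 and 4), a 2.95-fold increase with an adjusted p of 0.00152, and it was called in all 16 settings tried. None of the other 19 tested genes of GPI anchor synthesis was called, and the list median was -0.04.

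Bmf, which encodes a pro-apoptotic BH3-only protein of the Bcl2 family, also rose. Its D0 ratios were -0.52, -0.14, -0.27, 0.23 and -0.28 and its D3 ratios 0.87, 1.42, 1.16 and 1.01, again without overlap. The change was 1.31 ± 0.24 (adjusted p = 0.0123). Of 11 tested Bcl2 family genes Bmf alone was called, beside a list median of 0.08. Scyl3, a pseudokinase of the SCY1 family, stood at 0.14 to 0.36 in the D0 mice with a median of 0.34 and at 0.87, 1.45, 1.35 and 1.25 in the D3 mice, a change of 0.93 ± 0.13 (adjusted p = 0.00241).

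Pheta2, an endosomal adaptor of the phosphatase OCRL, had the largest increase and the least even one. The D0 ratios were 0.87, 1.59, 0.88, 0.54 and 0.87, and the D3 ratios 3.44, 1.12, 2.83 and 2.94. Mouse 17 thus stayed inside the vehicle range while the other 3 lay far above it. The change was 1.63 ± 0.31 (adjusted p = 0.0162), and within slides it was 2.18, 0.24 and 2.21. Scn4b, a beta subunit of voltage-gated sodium channels, had D0 ratios of 1.19, 0.82, 0.59, 0.32 and 0.61 and D3 ratios of 2.72, 1.26, 1.89 and 2.61. Mouse 17 was again the lowest of its group, only just above the vehicle mice. The change was 1.41 ± 0.29 (adjusted p = 0.0207), with within-slide values of 1.79, 0.07 and 2.00. A probe for the interval chr8:19682258-19700836 (mm9), to which the array design gives no gene, rose by 0.94 ± 0.17 and had the same low mouse, at 0.73 against 1.97, 1.56 and 1.63 for the other D3 mice.

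Sipa1l2, a Rap GTPase-activating protein, rose by 1.07 ± 0.19 (adjusted p = 0.0123), from -2.31 to -1.28 (median -1.55) in D0 to -1.01, -0.25, -0.66 and -0.63 in D3. Osbpl3, an oxysterol-binding lipid transfer protein, lay between -2.86 and -2.58 in D0 and at -2.30, -1.61, -1.83 and -1.94 in D3. Its change was 0.86 ± 0.17 (adjusted p = 0.0200), and its second called probe gave 0.77 (adjusted p = 0.0253) while above background on 1 D0 array only. Slc9a3r1, the PDZ scaffold NHERF1, rose by 0.77 ± 0.17 (adjusted p = 0.0342). The guanine nucleotide exchange factor gene Plekhg6 rose by 0.75 ± 0.17 (adjusted p = 0.0323), and Ripor2 by 0.85 ± 0.20 (adjusted p = 0.0428) with the groups overlapping and 1 of 5 D0 arrays above background. Cd151, a tetraspanin, rose by 0.67 ± 0.14 (adjusted p = 0.0211), whereas its other probe gave 0.34 (adjusted p = 0.0779).

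Dact2, which binds Dishevelled, rose by 0.80 ± 0.12 (adjusted p = 0.00414), with 3 of 5 D0 arrays above background. The Wnt receptor Fzd6 rose by 0.65 ± 0.14 (adjusted p = 0.0253). One probe of the retinoic acid receptor gene Rara rose by 0.59 ± 0.11 (adjusted p = 0.0127), but the brighter probe of the gene gave 0.25 (adjusted p = 0.350).

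The largest decrease of a named gene was that of Neat1, the long non-coding RNA around which nuclear paraspeckles assemble. Its ratios were 0.82, -0.98, 0.56, -0.27 and -2.13 in the D0 mice and -2.97, -2.42, -2.41 and -2.54 in the D3 mice. The vehicle mice spanned a wide range, with mouse 5 close to the treated animals, but the groups did not overlap. The change was -2.18 ± 0.39, a 4.54-fold lower ratio with an adjusted p of 0.0123, and -2.62 without mouse 5. The SE rests on a spread shared by all dose groups, with standard deviations of 1.20 in D0 and 0.26 in D3. With the D0 and D3 arrays alone the adjusted p (limma) was 0.114. The array carries 5 further probes annotated NEAT1, and all 5 were called, with changes of -2.06 to -2.29. In bulk tissue, fewer cells of a type and less RNA per cell cannot be told apart.

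A group of decreases shared with Neat1 the low value of vehicle mouse 5. Ccnl2, a cyclin that associates with splicing factors, read 0.38, -0.03, 0.19, 0.30 and -1.46 in D0 and -1.79, -1.27, -1.48 and -1.17 in D3. Mouse 5 lay among the D3 mice and the other 4 well above them. The change was -1.30 ± 0.26 (adjusted p = 0.0200) with mouse 5 and -1.64 (adjusted p = 1.86e-06) without it. The other probe of Ccnl2 gave -0.03 (adjusted p = 0.925), so the decrease was seen by 1 of the 2 probes. Col5a3, a chain of type V collagen, showed the same arrangement, at 1.29, 1.51, 1.29, 1.32 and -0.90 in D0 against -0.32, -0.55, -1.17 and -0.97 in D3. Its change was -1.65 ± 0.35 (adjusted p = 0.0253), and -2.11 without mouse 5. The pseudogene transcript Pisd-ps3, whose reads on an array probe cannot be separated from near-identical copies, changed by -1.04 ± 0.25 (adjusted p = 0.0437), and by -1.31 without mouse 5.

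Shfl, an interferon-induced inhibitor of ribosomal frameshifting, had D0 ratios of 3.14, 3.095, 3.37, 3.15 and 2.41 and D3 ratios of 2.30, 1.92, 2.04 and 2.00. Mouse 5 was the lowest vehicle mouse, just above the highest treated one. The change was -0.97 ± 0.15 (adjusted p = 0.00383), and -1.13 without mouse 5. Lime1, an adaptor of lymphocyte signalling, was called by both of its probes (-0.72 and -0.59), and Echdc2, a mitochondrial enoyl-CoA hydratase family member, likewise (-0.82 by each). The RNA helicase gene Ddx17 changed by -0.77 ± 0.17 (adjusted p = 0.0350). The 3 called probes for the interval chr5:123582742-123588117 (mm9) changed by -1.14, -0.87 and -0.79, with mouse 5 at -0.16, 0.14 and 0.39 against 1.04 or more in the other vehicle mice.

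Dido1, a chromatin reader, was measured on 4 D0 arrays since the spot of mouse 5 was left out as an outlier. Those arrays read 0.30, 0.14, 0.29 and 0.37 and the D3 arrays -1.03, -0.47, -0.42 and -0.61. The change was -0.90 ± 0.12 (adjusted p = 0.00241). Leaving out mouse 5 left this change as it was, since that mouse gave no value. In the authors' table of log2 ratios the change was -0.56 and not called (limma adjusted p = 0.230). A second probe of the gene was called too, at -0.64 (adjusted p = 0.0316), while the third gave 0.19 (adjusted p = 0.765).

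In other decreases mouse 5 lay with the vehicle mice. Pde5a, the phosphodiesterase that degrades cyclic GMP, read 1.42, 1.48, 1.49, 1.37 and 1.85 in D0 and -0.29, -0.07, 0.04 and -0.25 in D3. The groups were separated by more than the whole spread of either. The change was -1.66 ± 0.31, a 3.17-fold lower ratio (adjusted p = 0.0129), and 3 of the 4 D3 arrays were above background. Slc49a4, a lysosomal transporter, read 1.79, 1.55, 1.92, 1.56 and 1.82 in D0 and 0.06, 0.65, 0.53 and 0.13 in D3, a change of -1.39 ± 0.27 (adjusted p = 0.0177). It was not a list member, whereas Pde5a was the sole call among 10 tested genes of cyclic GMP signalling, whose median was -0.10.

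The largest decrease of any probe was that of the transcript the array names ENSMUST00000082402. Its ratios were 1.96, 2.09, 2.28, 1.61 and 2.05 in D0 and -0.94, -0.03, -0.03 and -0.97 in D3, a change of -2.49 ± 0.43 (adjusted p = 0.0116). The reference channel of the same spots differed by 1.00 in the opposite direction (adjusted p = 0.0976), and its part in the result was not tested. The 3 called probes for the interval chr19:5801802-5802597 (mm9, to which the array design gives no gene) changed by -1.18 ± 0.16, -1.01 ± 0.13 and -0.90 ± 0.15, each without overlap. For the second of them the reference channel differed by -0.66. Of 3140 tested interval probes 19 were called (0.605%), 17 of them lower. Probes with a gene symbol were called at 0.366% and other accessions at 0.436%.

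**Figure D2:**
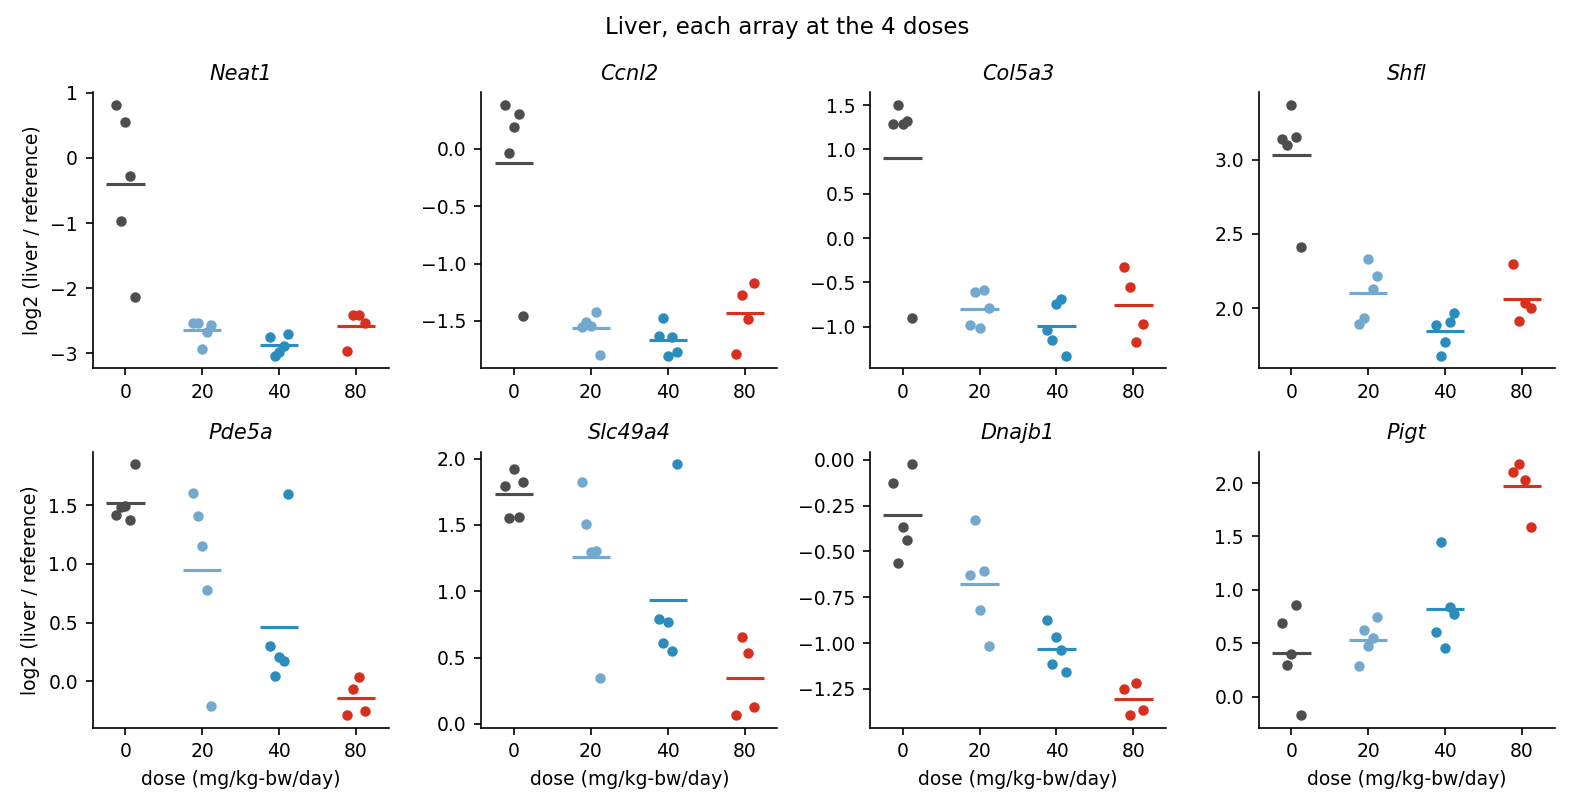
Log2 ratio on each liver array for 8 genes in the 4 dose groups (x axis, mg/kg-bw/day), with dashes for the group means. The Dnajb1 mean lies at -0.30, -0.68, -1.03 and -1.31 from D0 to D3, whereas that of Neat1 lies at -0.40, -2.65, -2.87 and -2.59.

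The livers of the lower doses gave a scale for the high dose. All dose groups are compared with the same D0 mice, so their changes are given side by side without a test between them. Against D0, 55 probes were called at D1 (54 lower) and 134 at D2 (127 lower). Of the 82 probes lower at D3, 31 were also called at D1, 39 at D2, 30 at both and 42 at neither. Of those 30, 24 were called higher in lung, where 400 of all 30383 tested probes were. Of the 17 probes higher at D3, 0 were called at D1 and 2 at D2. From D0 to D3 the Pigt means were 0.41, 0.53, 0.82 and 1.97, and those of Scyl3 0.30, 0.48, 0.61 and 1.23. Pheta2 stood at 0.95, 0.93, 0.59 and 2.58. For these genes the high-dose mean lay apart from the other groups. Neat1 had means of -0.40, -2.65, -2.87 and -2.59, Ccnl2 of -0.12, -1.57, -1.66 and -1.43, and Shfl of 3.03, 2.10, 1.84 and 2.06. In these genes D1 and D2 lay as low as D3. Pde5a stood at 1.52, 0.95, 0.47 and -0.14 and Slc49a4 at 1.73, 1.26, 0.94 and 0.35, with intermediate means at the intermediate doses. Single mice weighed on those means: mouse 10 was the lowest of D1 (-0.21 for Pde5a, 0.34 for Slc49a4) and mouse 15 the highest of D2 (1.59 and 1.96).

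Direct contrasts between doses, which do not use the vehicle means but share the spread estimated with the vehicle arrays, made few calls. Against D1, 6 probes (0.0263%) were called, 3 in each direction, and 2684 had an unadjusted p under 0.05 in limma. They were Pigt (1.44, adjusted p = 0.0149), Scyl3 (0.75, adjusted p = 0.0452), the splicing factor gene Srsf5 (1.16, adjusted p = 0.0400), Gm4759 (-0.72), AK053536 (-0.73) and an interval probe on chromosome 19 (-0.77, adjusted p = 0.0425). Against D2, 3 probes (0.0132%) were called, namely Pheta2 (1.99, adjusted p = 0.0430) and 2 chromosome 19 interval probes (-0.93 and -1.02), with 2554 at an unadjusted p under 0.05. Srsf5 itself changed by 0.50 against D0 (adjusted p = 0.213). These counts rested on single mice, at 53 and 47 without D3 mouse 16 and 0 and 0 without D3 mouse 18.

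Dnajb1, the Hsp40 co-chaperone that delivers clients to Hsp70, fell. Its ratios were -0.12, -0.56, -0.37, -0.44 and -0.02 in D0 and -1.25, -1.39, -1.22 and -1.37 in D3. The D3 mice lay within a narrow band well below every vehicle mouse. The change was -1.004 ± 0.12, a 2.01-fold lower ratio with an adjusted p of 0.00152, and it was called in all 16 settings. The stress-inducible Hsp70 gene Hspa1a read 1.81, 0.47, 1.85, 0.87 and 1.04 in D0 and -0.13, 0.16, 0.24 and 0.23 in D3. The groups did not overlap, yet the vehicle mice were spread widely, and the change of -1.08 ± 0.27 missed the threshold (adjusted p = 0.0586).

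Dnajb1 was the sole call among 19 tested heat shock and chaperone genes, whose median change was -0.05 with 12 below 0 and 4 at an unadjusted p under 0.05. The co-chaperone gene Bag3 changed by -0.60 (adjusted p = 0.106) and the constitutive Hsp70 gene Hspa8 by -0.42 (adjusted p = 0.300). Hspa5, the chaperone of the endoplasmic reticulum, stood at 0.24. Ddit3, the CHOP factor of the stress response, changed by -0.47 ± 0.08 with an adjusted p of 0.0123, below the minimum fold change.

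Promoter sequences were read for motifs that bear on the AhR and on heat shock. The stretches shown are the 250 bases before the start, from RefSeq promoter windows of GRCm38.p6, written 5′ to 3′ on the strand of the gene. They are shown since Dnajb1 and Pigt had the lowest adjusted p among called genes with a symbol and Hspa1a is the heat shock gene beside them. Capitals mark GCGTG, the core of the xenobiotic response element (CACGC where the match is on the reverse strand), in Dnajb1 and Pigt, and the heat shock element pair GAANNTTC in Hspa1a.
Dnajb1, chr8:83607925-83608174 (plus strand): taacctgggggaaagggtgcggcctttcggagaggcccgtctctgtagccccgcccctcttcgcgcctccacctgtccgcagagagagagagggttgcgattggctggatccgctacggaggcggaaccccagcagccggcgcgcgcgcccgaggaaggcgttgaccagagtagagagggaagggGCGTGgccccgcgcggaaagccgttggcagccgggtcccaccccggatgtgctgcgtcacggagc
Pigt, chr2:164497275-164497524 (plus strand): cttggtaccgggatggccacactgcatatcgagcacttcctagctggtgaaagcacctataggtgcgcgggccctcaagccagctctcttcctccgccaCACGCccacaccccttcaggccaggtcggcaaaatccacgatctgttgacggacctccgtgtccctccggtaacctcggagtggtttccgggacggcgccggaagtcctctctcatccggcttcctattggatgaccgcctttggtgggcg
Hspa1a, chr17:34972157-34972406 (minus strand): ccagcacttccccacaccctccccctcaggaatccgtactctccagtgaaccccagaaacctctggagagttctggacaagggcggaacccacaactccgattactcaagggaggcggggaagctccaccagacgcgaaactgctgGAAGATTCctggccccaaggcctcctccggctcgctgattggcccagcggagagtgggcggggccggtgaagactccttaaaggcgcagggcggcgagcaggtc

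The GCGTG match began at base -65 of Dnajb1 and -151 of Pigt, and the GAANNTTC match at -104 of Hspa1a. Of the 52 called genes 40 had a promoter window, reaching from 250 bases before to 50 after the start. GCGTG, searched on both strands, stood in 25 of the 40 (62.5%, 95% Wilson interval 47.0 to 75.8), in 9 of 12 higher and 16 of 28 lower genes. The share was 53.9% over 9627 tested genes and 35.2% over all 27025 genes of the table. GAANNTTC stood in 1 of 40 (2.5%) against 7.17% of tested and 9.04% of all genes, and the E-box CACGTG in 3 of 40 (7.5%) against 11.7% and 8.09%. Such matches are letters in a window and say nothing of binding.

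The AhR target genes showed 0 calls in limma among 9 tested, with 1 at an unadjusted p under 0.05. The shares over all tested probes were 0.434% and 15.0%. Cyp1a2, the main constitutive Cyp1 enzyme of liver, read 5.18, 4.48, 5.16, 4.93 and 4.62 in D0 and 4.63, 4.93, 4.83 and 5.11 in D3. Both means were 4.87, with a change of 0.002 ± 0.17 (adjusted p = 0.999). Cyp1a1 was well above background on 0 of the 9 arrays, and so was the AhR repressor gene Ahrr. Cyp1b1 was above background on 3 D0 arrays and 0 D3 arrays, with a change of -0.02 ± 0.21. Tiparp, an ADP-ribosyltransferase that feeds back on the receptor, changed by -0.12 (adjusted p = 0.823) and the quinone reductase gene Nqo1 by 0.14 (adjusted p = 0.715).

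Gsta2, a glutathione transferase of both the AhR and the Nrf2 battery, was the one list member with a large difference. It read 2.01, 2.01, 2.02, 1.79 and 1.43 in D0 and 3.07, 4.55, 2.21 and 4.14 in D3, so that every treated mouse lay above every vehicle mouse by a margin that varied widely. The change of 1.64 ± 0.56 did not pass the test (adjusted p = 0.163). Of the 9 tested AhR targets 5 had positive and 4 negative changes, with a median of 0.002. The receptor gene Ahr itself changed by -0.35 (adjusted p = 0.230) and Arnt by 0.37.

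Genes of the DNA damage response were not called either. Among p53 targets Cdkn1a, the p21 inhibitor, had means of -3.11 in both groups and a change of 0.00 ± 0.20 (adjusted p = 0.998). Ccng1 changed by 0.12 (adjusted p = 0.715) and Mdm2, the p53 ubiquitin ligase, by -0.13 (adjusted p = 0.458). Of 17 tested p53 targets 0 were called in limma and 2 had an unadjusted p under 0.05, with a median of -0.12. Of 19 nucleotide excision repair genes 0 were called and 1 had an unadjusted p under 0.05, with a median of 0.03. Over all tested probes 0.434% were called and 15.0% had an unadjusted p under 0.05. Lists this short would hold few or no calls at that share. The lesion sensor gene Ddb2 changed by -0.23 (adjusted p = 0.308).

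Interferon-stimulated genes, the antiviral programme that interferons switch on, lay lower as a list. Of 21 tested members 20 had a negative change, against 51.1% of all tested probes, and the median was -0.50 (-0.61 to -0.37 over the settings tried) against -0.004. Xaf1, an XIAP-associated factor, was the only member called, at -0.58, -0.57, -0.08, 0.07 and -0.61 in D0 and -0.73, -1.35, -1.79 and -1.18 in D3, a change of -0.91 ± 0.19 (adjusted p = 0.0253). It was -1.48, -0.77 and -0.14 within slides. Unadjusted p was under 0.05 for 9 of the 21.

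The largest uncalled members were Irf7, the regulator of interferon production, at -0.77 ± 0.24 (adjusted p = 0.127), Ifi44 at -0.62 (adjusted p = 0.111) and the ubiquitin-like modifier gene Isg15 at -0.59 (adjusted p = 0.183). Stat2 changed by -0.41 ± 0.13 (adjusted p = 0.146) with the groups apart, and Irf1 stood at 0.03. The list score is the mean deviation of its genes from their own means. It ran from -0.18 to 0.55 in D0 and from -0.44 to 0.04 in D3, so the groups overlapped. At the lower doses it ran from -0.26 to 0.08 in D1 and from -0.66 to -0.18 in D2. Outside the list, Ifi27 was called at -0.94 ± 0.22 (adjusted p = 0.0412) with overlapping groups, at 1.10, 1.66, 2.08, 1.98 and 1.60 in D0 and 0.99, 0.61, 0.15 and 1.22 in D3.

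**Figure D3:**
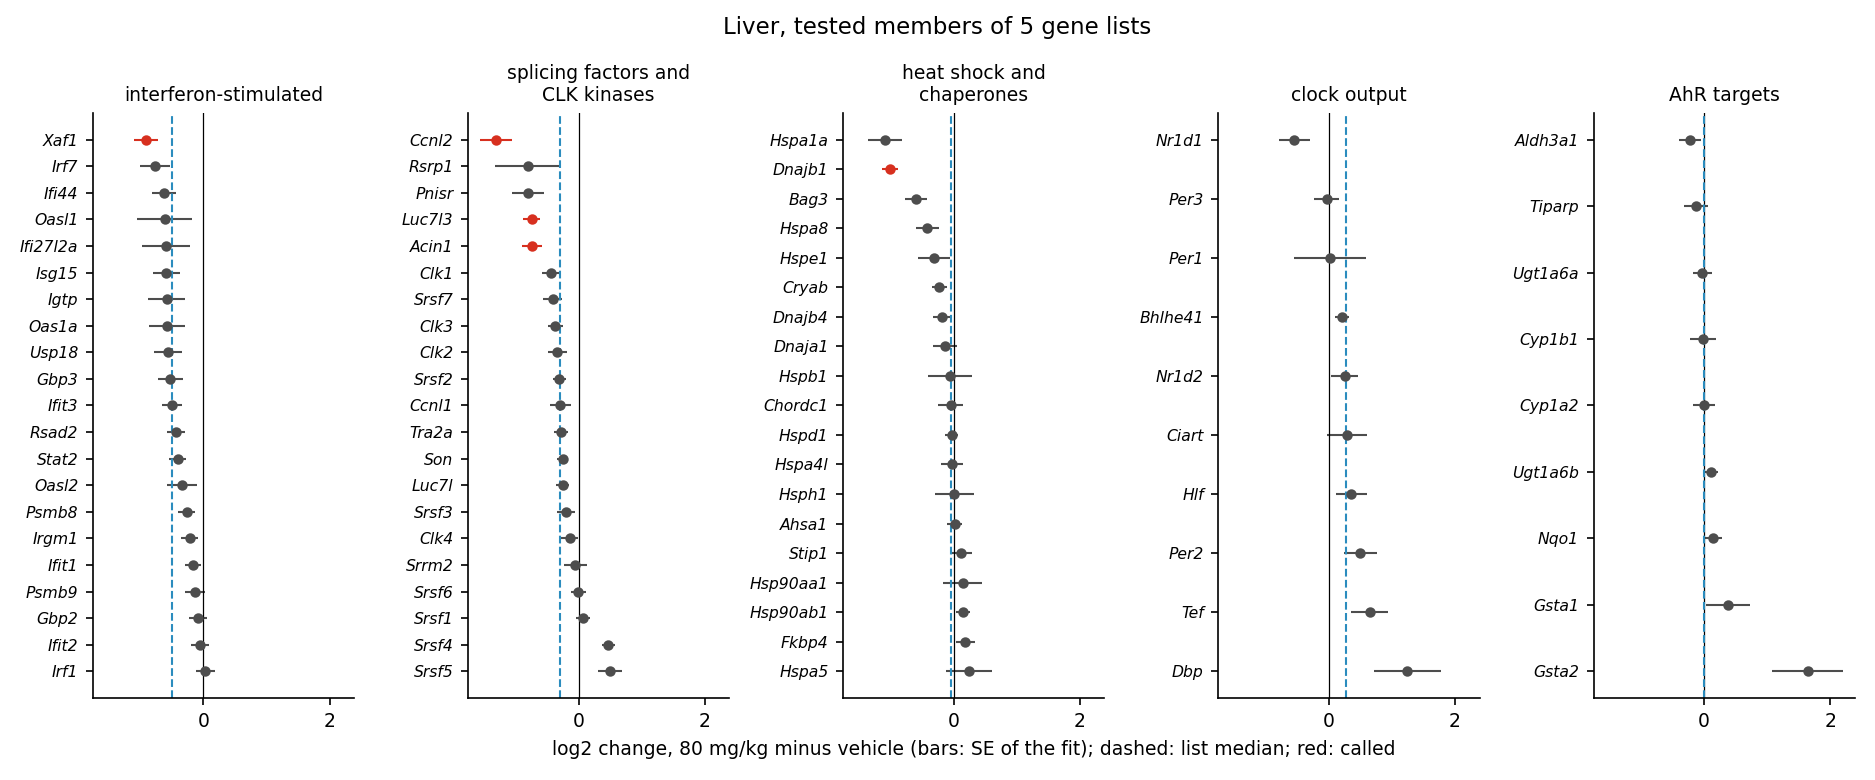
Fitted log2 change (D3 minus D0) of each tested member of 5 gene lists, with bars of 1 SE, red for called members and a dashed line at the list median. In the interferon-stimulated list 20 of 21 members lie below 0 with a median of -0.50, while the AhR targets scatter around a median of 0.002.

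Splicing factors and the CLK kinases that phosphorylate them gave 3 calls among 21 tested, all lower: Ccnl2, Luc7l3 and Acin1. The share called over all tested probes was 0.434%, and 15.0% had an unadjusted p under 0.05. Luc7l3, a relative of a U1 component, read -0.58, -1.06, -0.88, -0.99 and -0.99 in D0 and -1.77, -1.76, -1.45 and -1.59 in D3, a change of -0.74 ± 0.13 (adjusted p = 0.0123). Acin1, a member of the exon junction machinery, changed by -0.73 ± 0.16 (adjusted p = 0.0263), whereas its other probe gave -0.18 (adjusted p = 0.278). Of 21 tested members 18 had a negative change and 14 an unadjusted p under 0.05, with a median of -0.29. List scores ran from -0.14 to 0.30 in D0 and from -0.28 to -0.12 in D3. They overlapped through vehicle mouse 5, which had the lowest D0 score, the other vehicle mice being at 0.13 or more. At the lower doses the scores were as low, from -0.37 to -0.23 in D1 and from -0.42 to -0.10 in D2. Members of the SR protein family were found on both sides of 0, Srsf4 at 0.47 ± 0.10 (adjusted p = 0.0303, below the minimum fold) and Srsf5 at 0.50 (adjusted p = 0.213) against Srsf7 at -0.41 (adjusted p = 0.202) and Srsf2 at -0.30 (adjusted p = 0.174). Clk1 stood at -0.44 (adjusted p = 0.157) and Pnisr at -0.80 (adjusted p = 0.132).

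Neat1 was the sole call among 13 paraspeckle and nuclear long RNA genes, whose median was -0.14 with 10 below 0. Only probes with a gene symbol entered the lists, so the called probes of the chromosome 19 interval could not count here. Whether that interval belongs to a gene of this list was not tested. Malat1 changed by -0.43 (adjusted p = 0.0713) and Meg3 by -1.24 ± 0.30 (adjusted p = 0.0505, above background on 4 D0 arrays and 1 D3 array). List scores did not overlap, at -0.07 to 0.30 in D0 and -0.25 to -0.16 in D3. The lower doses also lay below D0, at -0.18 to -0.09 in D1 and -0.19 to -0.15 in D2. These scores include Neat1 itself, so they are not separate from its call. Scores of the Bcl2 family and cyclic GMP lists, which hold the called genes Bmf and Pde5a, did not overlap between D0 and D3 either. Small nuclear RNAs had a median of 0.27 over 6 tested members, 5 of them positive and 0 called in limma, with 3 at an unadjusted p under 0.05.

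**Figure D4:**
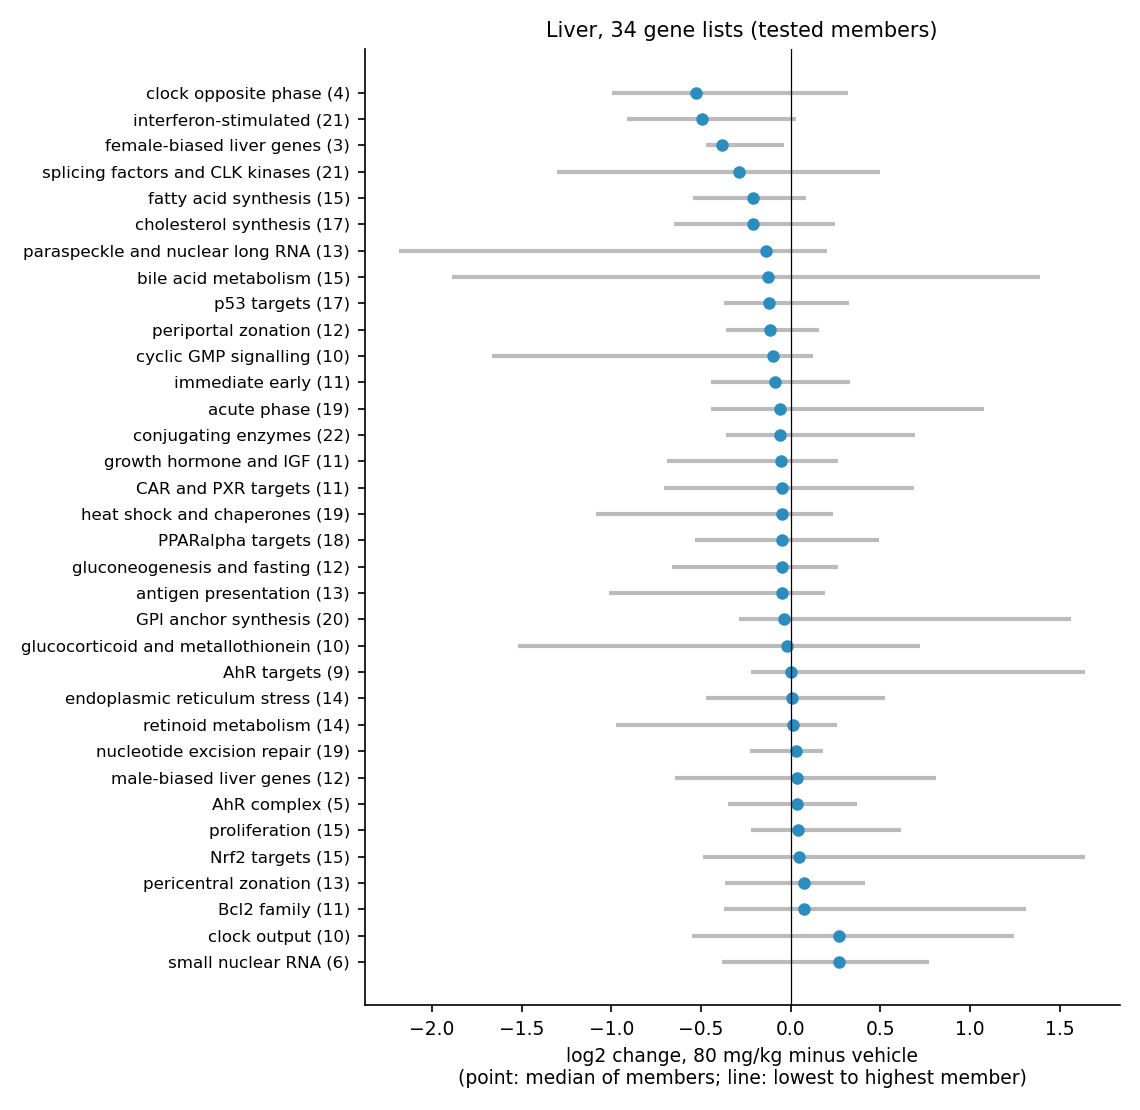
Median fitted log2 change (D3 minus D0, points) of the tested members of 34 gene lists, with lines from the lowest to the highest member and the number of tested members in parentheses. The interferon-stimulated list has its median at -0.50 and members from -0.91 to 0.03, and the paraspeckle list reaches from -2.18 (Neat1) to 0.20.

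Across all 34 lists 440 of 493 genes were tested, and 2 were called higher and 8 lower. Over all tested probes 0.434% were called and 15.0% had an unadjusted p under 0.05. These shares are the background for each list count given here, single calls included. The 10 calls became 5 without D3 mouse 17 and 6 without D3 mouse 18. Fatty acid synthesis and cholesterol synthesis genes both had a median of -0.21, with 13 of 15 and 11 of 17 members below 0 and 0 called in limma (2 and 1 at an unadjusted p under 0.05). Slc10a1, the sodium-dependent bile acid transporter, stood at -0.46 ± 0.11 (adjusted p = 0.0541) and Mlxipl, the glucose-responsive factor ChREBP, at -0.39 ± 0.10 (adjusted p = 0.0541), each with non-overlapping groups. Fabp1, the liver fatty acid-binding protein, stood at -0.51 (adjusted p = 0.0699) and the coactivator gene Ppargc1a at -0.62 (adjusted p = 0.0733).

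Clock output genes, which follow the time of day, had 8 of 10 members above 0 with a median of 0.27. Dbp read 0.86, 2.29, -1.08, 2.15 and 1.53 in D0 and 2.16, 2.48, 2.48 and 2.46 in D3, a tight treated group inside and above a scattered vehicle group, with a change of 1.24 ± 0.53 (adjusted p = 0.265). Arntl, of opposite phase, stood at -0.997 (adjusted p = 0.423). The 4 tested genes of that phase had a median of -0.53, with 3 below 0 and 0 called in limma (2 at an unadjusted p under 0.05). Targets of CAR and PXR and of PPARα had medians of -0.05 each and Nrf2 targets 0.05.

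Markers of the cell types in and around liver gave 0 calls in limma among 55 tested, of which 8 had an unadjusted p under 0.05. The shares over all tested probes were 0.434% and 15.0%. Kupffer cell markers had a median change of -0.26, stellate cell markers -0.30, hepatocyte markers -0.18 and sinusoidal endothelial markers -0.006. The largest median was that of the neutrophil markers, at -0.44 over the 3 tested of 7, with scores from -0.42 to 1.62 in D0, the highest in mouse 4, and from -0.54 to 0.17 in D3. B cell markers had a median of 0.22 over 2 tested members, and the 1 tested fat marker stood at 0.17. Among the endothelial markers Kdr, the VEGF receptor, changed by -0.51 (adjusted p = 0.0253, below the minimum fold). The scores of the stellate markers ran from -0.13 to 0.36 in D0 and from -0.26 to -0.02 in D3, and those of the Kupffer markers from -0.38 to 0.72 and from -0.36 to 0.18. Their part in the decreases was not tested. Of the B cell markers 5 of 7 were above background on none of the 9 arrays, as were 3 of 7 exocrine pancreas and 3 of 5 fat markers.

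Lungs, 5 per group at D0 and D3, were measured on the same kind of array. They came from the same animals and, at D3, also from mouse 20, whose liver was not analysed here. The liver effect differed from the lung effect for 512 of 21868 probes tested in both tissues (2.34%), 66 more positive and 446 more negative in liver. With median centring it was 22 probes, all more negative in liver, and without mouse 20 it was 534. Among the 99 probes called in liver 96 could be tested, and 46 differed, 37 more negative and 9 more positive in liver. Of the 82 probes lower in liver, 25 (30.5% of them, 6.25% of the 400 called higher in lung) were called higher in lung and 10 (12.2% of them, 5.81% of the 172 called lower in lung) were called lower. Over all 30383 probes tested in lung, 400 were called higher and 172 lower. Of the 17 higher probes, 16 were tested in lung, where their changes ran from -0.25 to 0.70 without a call.

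Neat1 went opposite ways, at -2.18 in liver and 1.60 in lung (lung adjusted p = 0.0028), a difference of -3.78 with an adjusted p of 9.97e-06. Ccnl2 stood at -1.30 and 0.84, a difference of -2.14 (adjusted p = 2.81e-05). Shfl stood at -0.97 and 0.64, a difference of -1.61 (adjusted p = 7.14e-07), and Dido1 at -0.90 and 0.81, a difference of -1.72 (adjusted p = 7.77e-08). All 4 had passed the test in both tissues with opposite signs. Col5a3, in contrast, had a difference of -1.19 that was not called (adjusted p = 0.28).

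Dnajb1 was called lower in both tissues, at -1.004 in liver and -0.86 in lung (lung adjusted p = 0.00067), and the difference of -0.14 ± 0.19 did not pass the test (adjusted p = 0.79). Acin1 stood at -0.73 and -0.82. Hspa1a changed more in lung, at -2.95 (adjusted p = 2.65e-05) against -1.08 in liver, a difference of 1.86 (adjusted p = 0.00798). The increases of Pheta2, Scn4b, Bmf and Sipa1l2 differed from lung by 1.77 (adjusted p = 0.00243), 1.66 (adjusted p = 0.0234), 0.93 (adjusted p = 0.0493) and 0.93 (adjusted p = 0.00716). Pigt stood at 1.56 and 0.70, a difference of 0.86 that was not called (adjusted p = 0.528).

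Part of the lung data separated by slide. Lung slide 3 (7 arrays) lay wholly apart from lung slides 1 and 2 (13 arrays), whatever the dose, for 5 of the 24 genes with the largest changes: Pigt, Dact2, Cd151, Pde5a and Slc49a4. The share over all probes tested in liver was 396 of 22789 (1.74%). For Pigt the lung ratios ran from -2.23 to -0.93 on slide 3 and from -0.56 to 1.21 on the others, and for Pde5a from 0.78 to 1.36 and from -0.48 to 0.03. The liver difference of Pde5a was -1.53, -1.49 and -1.95 on the 3 liver slides. The part of the separation in lung was not tested.

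**Figure D5:**
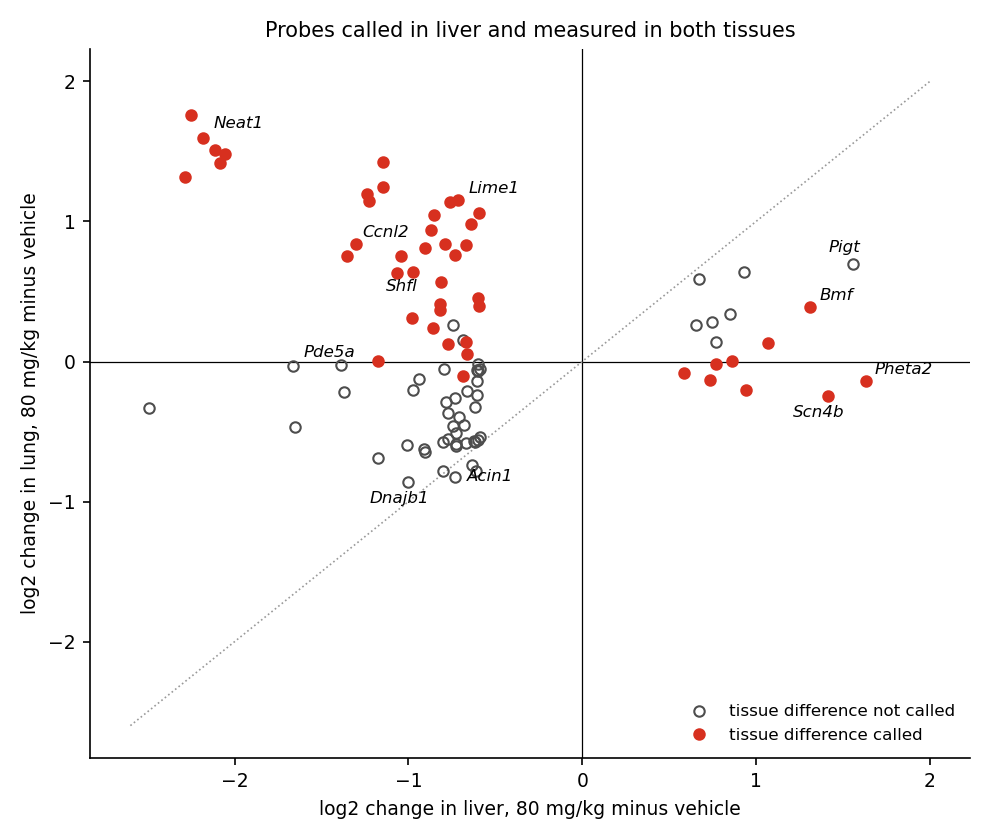
Log2 change at 80 mg/kg-bw/day in liver (x axis) and in lung (y axis) for the 96 called liver probes measured in both tissues, filled red where the difference between the tissues was called. The Neat1 probes lie at about -2 in liver and above 1 in lung, whereas Dnajb1 lies near the dotted line of equal change.

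The reference channel served as a background measure, since the same RNA was on every array. Cy3 signal differed between the D3 and D0 arrays for 14 probes (0.0614%), 6 higher and 8 lower. Among the 99 called probes the Cy3 difference reached the 1.5-fold minimum for 3, all called lower. For 5 called probes no D3 array was well above background, so the fold is a bound. It sets the mean D0 signal against, on each D3 array, the higher of the lowest signal among probes well above background and the signal of the probe itself, and for all but Olfr441 the latter was the higher. The olfactory receptor gene Olfr441 was at least 1.38-fold lower, NR_026976 at least 1.79-fold, XM_001476908 at least 1.62-fold, AK034303 at least 1.49-fold and the probe A_55_P2033615 at least 1.42-fold.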

How the data were processed

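The deposited scanner files held spot intensities on a linear scale, which the authors read with Feature Extraction 10.7.3.1 on a grid built on mm9. Median signals of both channels were used without background correction, as in the study's methods, normalised by loess within each array and turned into log2 (Cy5/Cy3), with outlier spots (0.524%) left out and spots of one probe averaged. The authors' deposited table of LOWESS log2 ratios, which correlated with these at r of 0.996 to 0.997, was an alternative. Probes were tested where 4 or more of the 19 liver arrays had a Cy5 signal well above background. Dyes were not swapped, and both groups share any dye bias of a probe. The number of arrays limits the precision, and 0 pairs held identical values.

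A single model (limma 3.58.1, R 4.3.3) held the 4 liver dose groups, with two-sided moderated tests and Benjamini-Hochberg adjustment over all tested probes. The study's MAANOVA test was not used here, and p-values from 100 shuffles of residuals stood in as an alternative. Liver and lung effects were compared as an interaction. Samples with the same mouse number came from one animal, and residuals of lung and liver correlated with r of -0.0315 to 0.192 (median 0.125) over 19 mice. Normexp background correction used median signals, with offset 50. Other alternatives were median centring, processed signals, Cy5 alone, the slide as a block, other filters and fold minimums, and leaving out each mouse.

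Symbols came from a RefSeq table of GRCm38.p6, which matched 26413 of 55681 probes. Named genes were the 12 largest increases and 12 largest decreases among called probes with a symbol and all D3 arrays on one side of the D0 mean, called list members, 9 AhR and p53 targets, and the 2 members of lowest p in each list. A list gene was represented by its brightest tested probe. Other genes were named after their values were seen. The comparison and the lists were chosen with earlier results of these data known. One gene that the rule named is not reported here.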

Additional observations from a re-analysis of the deposited data

Results flagged for a closer look

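Among 184 groups of arrays of named genes, 9 held 1 array set apart from its group by Dixon's gap ratio (the gap to the nearest other array over the group's range), where chance gives about 1 in 20. Vehicle mouse 5 was that array for 4 genes, with a ratio of 0.91 for Col5a3 (-0.90 against 1.29 to 1.51), 0.773 for Ccnl2 (-1.46 against -0.03 to 0.38), 0.714 for Shfl (2.41 against 3.095 to 3.37) and, above its group, 0.752 for Pde5a (1.85 against 1.37 to 1.49). Vehicle mouse 3 was set apart for Zbtb16 (0.892, at 2.89 against 4.70 to 4.92) and Osbpl3 (0.868, at -2.58 against -2.86 to -2.82). Vehicle mouse 1 was set apart for Rara (0.757, at -0.51) and vehicle mouse 2 for Nqo1 (0.713, at -1.02). In the high-dose group mouse 16 was set apart for Dbp (0.948, at 2.16 against 2.46 to 2.48).

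The effect in liver differed from that in lung for 20 of 85 named genes measured in both tissues (limma interaction, adjusted p at most 0.05 and fold at least 1.5). It was more negative in liver, as a log2 difference, for Neat1 (-3.78, adjusted p = 9.97e-06), Ccnl2 (-2.14, 2.81e-05), Meg3 (-1.88, 0.00212), Pisd-ps3 (-1.80, 0.00066), Fabp1 (-1.79, 0.000801), Dido1 (-1.72, 7.77e-08), Shfl (-1.61, 7.14e-07), Fgg (-1.48, 0.0171), Ddb2 (-1.004, 0.000163), Sult1a1 (-0.87, 0.00754) and Ahr (-0.69, 0.0179). Of these, Meg3, Fabp1, Fgg, Ddb2, Sult1a1 and Ahr were not called in liver alone. It was more positive in liver for Hspa1a (1.86, 0.00798), Pheta2 (1.77, 0.00243), Scn4b (1.66, 0.0234), the U2 RNA gene Rnu2-10 (1.52, 0.00423), Sipa1l2 (0.93, 0.00716), Bmf (0.93, 0.0493), Osbpl3 (0.86, 0.0195), Slc9a3r1 (0.79, 0.0205) and Rara (0.67, 0.00647).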

How the results depend on the processing

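The 99 calls of the high dose against vehicle became 27 with median centring, 196 with processed signals (71 of the 99 among them), 163 with the slide as a block (97 of the 99), 32 with only D0 and D3 arrays, 257 with no minimum fold and 28 with a minimum of 2, and 40 to 204 when a mouse was left out. They were 82 to 108 under the other 6 settings, and shuffled residuals kept all 99. Cy5 alone shared 49. Of the 24 genes with the largest changes 9 stayed called with median centring and 9 with only D0 and D3 arrays, and 12 to 24 when a mouse was left out. Called list genes numbered 10, with 5 under median centring and 5 to 13 when a mouse was left out. The 512 probes whose effect differed between liver and lung became 22 with median centring and 370 to 646 when a mouse was left out. With the mouse as a replicate block they numbered 570, of which 511 were among the 512. Against D1 the 6 calls became 0 with median centring, 26 with the slide block and 0 to 53 when a D3 mouse was left out, and against D2 the 3 calls became 0, 21 and 0 to 47. Only D3 mice were left out for these contrasts. In the 150 bases nearest the start GCGTG stood in 40% and CACGTG in 2.5% of called genes. The causes of these shifts were not tested. No call of a named gene reversed in any setting tried for it. For the other calls, and for values that were not called, a change of sign was not counted.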
